A study of Mus musculus with 6 samples.

Results

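The genes described here are 10 genes of the NF-κB system: the subunits *Nfkb1*, *Nfkb2*, *Rela* and *Relb*, the feedback inhibitors *Nfkbia* and *Tnfaip3*, and the target genes *Il6*, *Il1b*, *Tnf* and *Ptgs2*. They were chosen by name, because transglutaminase 2 (TG2), the product of *Tgm2*, is known to activate NF-κB, and all 10 were found among the 20076 genes of the table. The samples were bulk primary tumors from C57BL/6 mice, 3 from wild-type (WT) hosts and 3 from *Tgm2* knockout hosts, which were injected at an age of 6 to 10 weeks under the bursa of both ovaries with cells of the mouse ovarian cancer line ID8 Trp53-/- Brca1-/- and whose tumors were collected 6 weeks later. The knockout was in the host, and mice of both genotypes carried the same cancer cells, which lack *Trp53* and *Brca1* and for which no edit of *Tgm2* is named. The sources used here do not say whether the line is 1 clone or whether tumors of a mouse were pooled. Values are normalized counts, which the authors divided by a size factor for each tumor, and they summed to between 32316613 and 37717165 per tumor. A value of 1 read corresponded to between 0.939 and 1.09 normalized counts.

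NF-κB proteins are transcription factors that sit in the cytoplasm bound to inhibitors of the IκB family. Signals from tumor necrosis factor, interleukin-1 and Toll-like receptors activate IκB kinase, the inhibitors are degraded, and RelA with the *Nfkb1* product enters the nucleus. An alternative pathway, started by receptors such as the lymphotoxin-β receptor, processes the *Nfkb2* product, which pairs with RelB. The factors induce inflammatory genes together with their own inhibitors, and in ovarian tumors cancer cells, macrophages and stromal cells can all be sources of these transcripts. In bulk tumors, fewer cells of a type and less RNA per cell cannot be told apart.

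Promoters are shown because NF-κB is known to bind DNA at κB sites. RefSeq promoter sequences on GRCm38.p6 were at hand for 8 of the 10 genes, with 11 start sites in all. The κB consensus, which opens with GGG and closes with CC, was searched on both strands in the 250 bases before each start. It was found before 6 of the 11 starts, against 7.25% of 32851 such windows of all genes. These starts belong to 4 of the 8 genes, *Nfkb2*, which has several of them, *Nfkbia*, *Tnfaip3* and *Il6*. The genes were chosen as genes of the NF-κB system, so this share is a description and not a test. The TATA box, TATAAA, was found, also searched on both strands, before 3 of the 11 starts, those of *Il1b*, *Tnf* and 1 start of *Tnfaip3*, against 12.4% of all windows. The last 130 bases before a start follow for 2 inhibitors and 2 targets, read 5′ to 3′ on the strand of the gene, with κB and TATA matches in capitals. The windows are chr12:55492648-55492777 (minus strand) for *Nfkbia*, chr10:19015411-19015540 (minus strand) for *Tnfaip3*, chr5:30012984-30013113 (plus strand) for *Il6* and chr17:35202008-35202137 (minus strand) for *Tnf*.
Nfkbia: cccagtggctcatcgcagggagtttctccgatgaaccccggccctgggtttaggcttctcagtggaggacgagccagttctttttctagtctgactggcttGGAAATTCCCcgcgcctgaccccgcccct
Tnfaip3: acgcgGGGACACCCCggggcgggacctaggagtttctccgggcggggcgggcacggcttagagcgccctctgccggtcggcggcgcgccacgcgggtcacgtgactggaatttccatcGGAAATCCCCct
Il6: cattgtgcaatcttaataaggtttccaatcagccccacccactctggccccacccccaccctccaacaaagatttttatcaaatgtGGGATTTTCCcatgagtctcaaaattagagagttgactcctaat
Tnf: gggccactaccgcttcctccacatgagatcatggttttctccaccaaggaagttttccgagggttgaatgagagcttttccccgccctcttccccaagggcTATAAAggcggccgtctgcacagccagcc
The match of *Nfkbia* lies on the opposite strand and ends 19 bases before the start, and that of *Il6* lies on the gene's own strand and ends 34 bases before it. *Tnfaip3* has a site matched on both strands that ends 115 bases before the start shown, which lies inside the gene in GENCODE, and another on the opposite strand that ends 2 bases before it. A match is a description of the letters in these windows, and binding was not measured in this study.

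Transcripts of *Tgm2* itself came to 14978, 12155 and 13180 normalized counts across WT tumors 1 to 3, against 5853, 6071 and 8157 in knockout tumors 1 to 3. The highest knockout tumor was below the lowest WT tumor, yet transcripts remained in all 3, and cancer cells can be a source of them. The log2 fold change was -1.02 ± 0.22 (standard error), which did not pass adjustment (adjusted p = 0.391, limma). The mesothelial and ovarian surface epithelial markers, for the origin of ID8 cells, were high in every tumor, with *Wt1* between 13131 and 20641 and *Krt8*, a keratin named after its values were seen, between 10373 and 21948 normalized counts. Markers of leukocytes, fibroblasts and adipocytes were also present in every tumor, so the samples, whose label gives cancer cells as the cell type, held other cells too. WT tumor 3 stood apart in *Ltf*, lactotransferrin, with 52176 normalized counts against 31.6 to 3967 in the other tumors, and it also held the highest *Nfkbiz* and *Il1a*. Several values below are also given without this tumor.

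None of the 10 genes differed between the genotypes past the limits of limma's test (adjusted p-value of 0.05 with an absolute log2 fold change of 1), where 0.102% of the 19667 tested genes did, all of them higher in the knockout tumors. This share, 20 genes, was not the same in every fit. The number higher was 2 to 14 with 1 tumor left out, where the test also had fewer samples. It was 0 with a covariate for white adipocyte markers, described below, but that covariate itself separated the genotypes. At an unadjusted p-value of 0.05, 1 of the 10 genes passed, *Ptgs2*, which was lower in the knockout tumors, against 5.78% of all tested genes in either direction, 2.38% lower and 3.4% higher. The knockout tumors did not overlap with the WT tumors in 1 of the 10 genes, *Tnf*, which was lower, against 10.5% of all tested genes in either direction and 5.33% lower. The 4 subunits had log2 fold changes between -0.11 and 0.16, the inhibitors -0.20 and -0.17, and the 4 target genes between -0.82 and -0.65. The median over the 10 genes was -0.19, beside -0.03 over all tested genes, and ranged from -0.34 to -0.08 with 1 tumor left out. The log2 fold change was below 0 in 8 of the 10 genes, and in 52.7% of all tested genes.

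**Figure D1:**
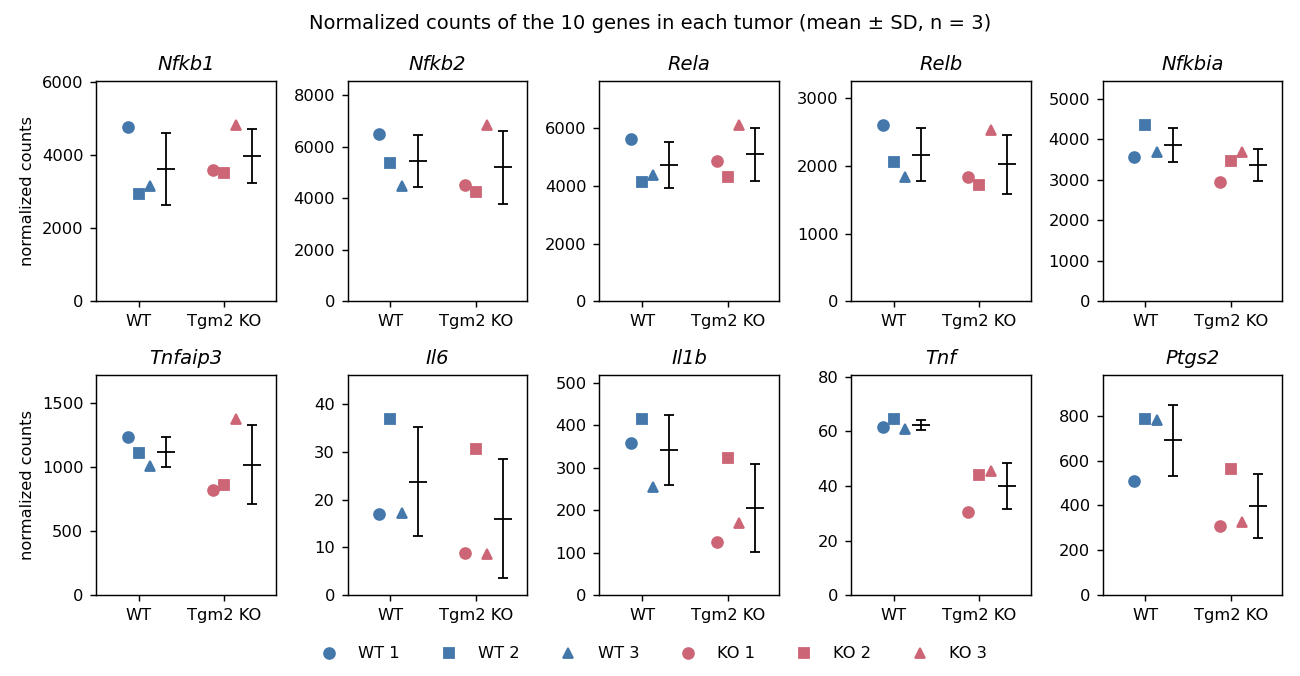
Normalized counts (y axis, from 0) of the 10 genes in each of the 6 tumors, with blue symbols for WT and red symbols for *Tgm2* knockout tumors, and with the mean ± SD of the 3 tumors of each group as a bar. The groups overlap in every panel except *Tnf*, where the WT tumors lie between 60.8 and 64.5 and the knockout tumors between 30.3 and 45.3.

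*Nfkb1*, which encodes the precursor of the small subunit that pairs with RelA, lies on chromosome 3 of GRCm38 from 135584655 to 135691547. Normalized counts stood at 4751, 2924 and 3160 across WT tumors 1 to 3, against 3596, 3501 and 4814 in knockout tumors 1 to 3. The highest value was in knockout tumor 3 and the next in WT tumor 1, so the groups overlapped widely. Its log2 fold change was 0.16 (95% confidence interval -0.40 to 0.71, adjusted p = 0.94 from limma), and it ranged from 0.01 without knockout tumor 3 to 0.37 without WT tumor 1.

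*Rela*, the subunit that carries the transactivation domain of the classical pathway, lies on chromosome 19 from 5637483 to 5648130. It was measured at 5631, 4121 and 4383 in the WT tumors, against 4850, 4316 and 6097 in the knockout tumors. The same pair of tumors, knockout tumor 3 and WT tumor 1, was again on top. On the log2 scale the difference was 0.11 (95% confidence interval -0.39 to 0.61, adjusted p = 0.953 from limma).

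*Nfkb2* and *Relb* encode the pair of the alternative pathway. *Nfkb2* (chromosome 19, 46304320 to 46312385) had 6490, 5361 and 4459 normalized counts in the WT tumors, against 4509, 4257 and 6841 in the knockout tumors. *Relb* (chromosome 7, 19606217 to 19629438) had 2600, 2059 and 1838 in the WT tumors, against 1829, 1709 and 2521 in the knockout tumors. In both genes WT tumor 1 and knockout tumor 3 were above the other 4 tumors. Their log2 fold changes were -0.08 and -0.11, with 95% confidence intervals of -0.65 to 0.49 and -0.63 to 0.41. The remaining subunit gene, *Rel*, which acts mainly in lymphocytes and myeloid cells and is not among the 10 genes, had a log2 fold change of 0.15 (standard error 0.28), and knockout tumor 3 was again its highest tumor, with 746 normalized counts. Without WT tumor 3 the log2 fold changes of *Nfkb1*, *Rela*, *Nfkb2* and *Relb* were 0.08, 0.06, -0.21 and -0.22. Leaving out other tumors could turn the sign. *Nfkb2* had 0.06 and *Relb* 0.03 without WT tumor 1, and *Rela* had -0.03 without knockout tumor 3. *Nfkb1* stayed above 0 whichever tumor was left out. For each of the 4 subunits the confidence interval lay within a log2 fold change of 1 in either direction.

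The inhibitors are themselves induced by NF-κB and so report on its activity in many cells. *Nfkbia* encodes IκBα, which removes RelA from the nucleus, and lies on chromosome 12 from 55489410 to 55492647, downstream of the κB match shown above. It had normalized counts of 3572, 4349 and 3683 across WT tumors 1 to 3, against 2940, 3462 and 3696 in knockout tumors 1 to 3. Knockout tumors 1 and 2 were the lowest of the 6, but knockout tumor 3 exceeded WT tumors 1 and 3. The log2 fold change was -0.20 (95% confidence interval -0.63 to 0.23, adjusted p = 0.908 from limma), and -0.11 without WT tumor 2 or without knockout tumor 1.

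*Tnfaip3* encodes A20, a ubiquitin-editing enzyme that shuts off signaling from the tumor necrosis factor receptor, and lies on chromosome 10 from 19000910 to 19015657. Normalized counts were 1237, 1106 and 1009 in the WT tumors, against 822, 857 and 1376 in the knockout tumors. Knockout tumors 1 and 2 lay below all WT tumors and knockout tumor 3 above all of them. On the log2 scale it differed by -0.17 (95% confidence interval -0.74 to 0.41), and it was -0.04, -0.07 and -0.41 without knockout tumor 1, 2 or 3.

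Among the targets, *Tnf* (chromosome 17, 35199381 to 35202007) encodes tumor necrosis factor, which is both a product and an activator of NF-κB. It was measured at 61.4, 64.5 and 60.8 across WT tumors 1 to 3, against 30.3, 44.1 and 45.3 in knockout tumors 1 to 3. The WT tumors were nearly level, and each knockout tumor was below all of them (two-sided exact permutation p = 0.1, as low as 3 tumors against 3 can reach). The ratio of the means was 0.641 and the log2 fold change was -0.65 (95% confidence interval -1.77 to 0.47, adjusted p = 0.896 from limma). These values rest on 32.2 to 65.5 reads. The groups of *Tnf* overlapped after quantile normalization, where knockout tumor 3 stood at 62.7 and WT tumor 3 at 49.8.

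*Il1b* (chromosome 2, 129364570 to 129371139) encodes interleukin-1β, a cytokine made mainly by activated myeloid cells. It was measured at 358, 415 and 254 normalized counts in the WT tumors, against 124, 323 and 171 in the knockout tumors. Knockout tumors 1 and 3 lay below all WT tumors, whereas knockout tumor 2 lay above WT tumor 3. The means were 342 ± 81.9 and 206 ± 104 (SD, n = 3 per group), and the log2 fold change of -0.82 (standard error 0.42) did not pass the test (adjusted p = 0.888 from limma).

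*Ptgs2* (chromosome 1, 150100031 to 150108227) encodes cyclooxygenase-2, the inducible enzyme of prostaglandin synthesis. It was measured at 509, 787 and 780 in the WT tumors, against 308, 562 and 325 in the knockout tumors. Knockout tumor 2 lay above WT tumor 1, and the other knockout tumors lay below all WT tumors. The log2 fold change was -0.82 with a 95% confidence interval of -1.56 to -0.08. Its unadjusted p was 0.0333 and its adjusted p 0.819 from limma, so the gene did not pass adjustment over all genes.

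*Il6* (chromosome 5, 30013114 to 30019981) encodes interleukin-6, a cytokine that signals through STAT3. It was the scarcest of the 10 genes, with 17.1, 36.9 and 17.1 normalized counts in the WT tumors, against 8.85, 30.5 and 8.70 in the knockout tumors. Knockout tumors 1 and 3 were the lowest and tumor 2 of each genotype the highest. After quantile normalization WT tumor 3, at 12.3, was below knockout tumor 3, at 13.3. The log2 fold change of -0.68 had a 95% confidence interval from -2.36 to 1.0, which includes differences in both directions.

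**Figure D2:**
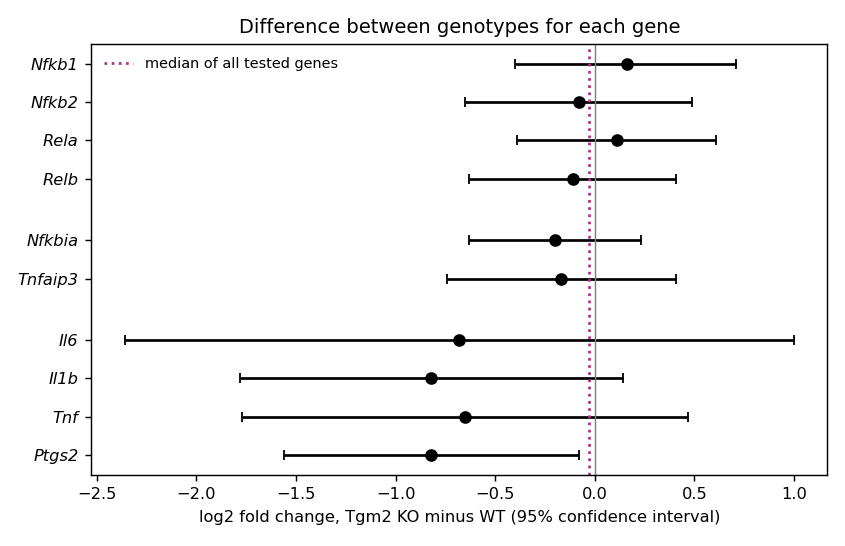
Log2 fold change (x axis, *Tgm2* knockout minus WT) of each of the 10 genes from limma, with bars for the 95% confidence interval, 3 tumors per group, and a dotted line at the median of all tested genes, -0.03. Only the interval of *Ptgs2*, from -1.56 to -0.08, leaves out 0.

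Per length of transcript, *Nfkbia* and *Rela* were the most abundant of the 10 genes, with WT means of 2450 and 1730 normalized counts per kb of their longest coding transcript. *Tnf* and *Il6* were the least abundant, at 38.0 and 10.1 per kb. *Il1b* and *Ptgs2* lay between, at 252 and 155 per kb in the WT tumors, against 152 and 89.5 per kb in the knockout tumors.

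The subunits and the targets did not rank the tumors alike. WT tumor 1 and knockout tumor 3 were the highest pair in 4 of the 4 subunits, and both were ahead of the others in *Tnfaip3* as well. Over all tested genes, deviations of this pair also correlated, at 0.359. How often the pair ranks highest among all genes was not tested. WT tumor 2 was the highest in 4 of the 4 targets, and knockout tumor 1 was the lowest in 3 of them, the exception being *Il6*, where knockout tumor 3 was slightly lower. The mean log2 value of the 4 subunits was 12.17, 11.73 and 11.67 across WT tumors 1 to 3, against 11.76, 11.66 and 12.21 in knockout tumors 1 to 3. That of the 4 targets was 6.91, 7.40 and 6.93 in the WT tumors, against 5.88, 6.99 and 6.15 in the knockout tumors. In the targets, knockout tumor 2 was within the range of the WT tumors, and knockout tumors 1 and 3 were below all of them. The spread between tumors was wider in the targets, from 2.13 times between the highest and the lowest tumor in *Tnf* to 4.24 times in *Il6*, than in the subunits, where it lay between 1.48 and 1.65 times. Without WT tumor 3, the log2 fold changes of *Il6*, *Il1b*, *Tnf* and *Ptgs2* were -0.86, -1.02, -0.67 and -0.72, and over the 6 ways of leaving out 1 tumor they ranged from -1.24 to -0.33, -1.20 to -0.51, -0.75 to -0.47 and -1.10 to -0.67.

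**Figure D3:**
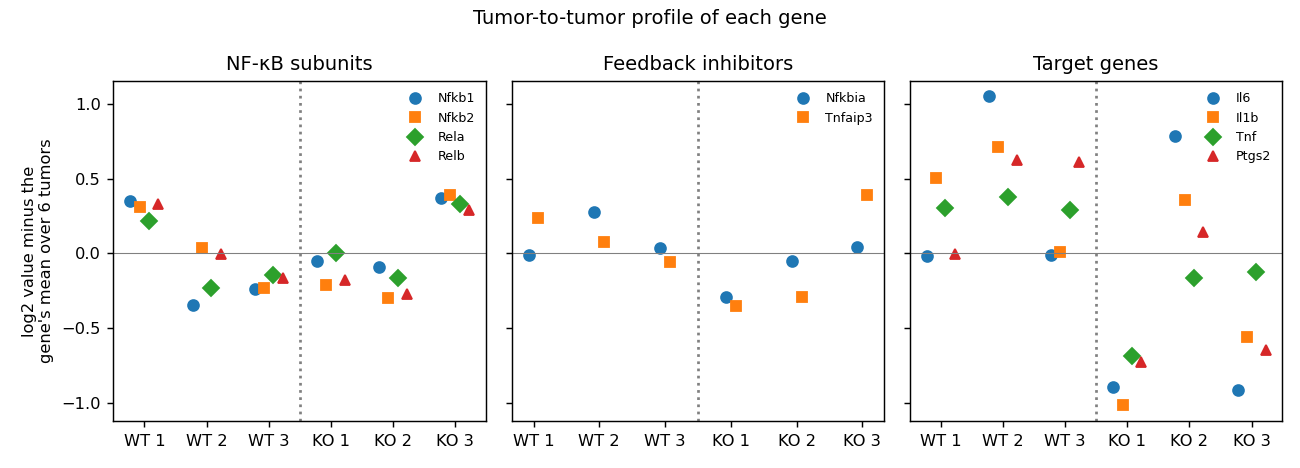
Log2 value of each gene minus its own mean over the 6 tumors (y axis), by tumor (x axis), for the subunits, the inhibitors and the targets, with a dotted line between the WT and the knockout (KO) tumors. The subunits peak in WT tumor 1 and knockout tumor 3 and the targets in WT tumor 2, with the lowest target values in knockout tumors 1 and 3.

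Other genes of the pathway were taken from 10 lists with 136 genes, chosen by name and role, all of which were tested. None of the 136 passed the adjusted limits of limma, whereas 3 were higher and 6 lower at an unadjusted p of 0.05. These 9 were 6.62% of the lists, against 5.78% of all tested genes. The groups did not overlap in 4 genes that were higher in the knockout tumors and 12 that were lower, or 11.8% of the 136, against 10.5% of all tested genes. The median log2 fold change of the 136 genes was -0.05.

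Among 13 other IκB proteins and feedback inhibitors, 0 were higher and 2 were lower (15.4%, against 2.38% of all tested genes) at an unadjusted p of 0.05, and the median was -0.02. *Bcl3*, an atypical IκB that acts in the nucleus with the *Nfkb1* and *Nfkb2* products, was measured at 2147, 1887 and 1722 normalized counts in the WT tumors, against 1243, 1249 and 1273 in the knockout tumors. The knockout tumors were almost level and all below the WT tumors. The log2 fold change, -0.61 ± 0.18 (standard error; adjusted p = 0.678, limma), stayed between -0.68 and -0.52 when each tumor was left out in turn. *Zc3h12a*, which encodes the RNase Regnase-1 that degrades *Il6* mRNA, had 507, 464 and 793 in the WT tumors, against 330, 336 and 339 in the knockout tumors, or -0.77 on the log2 scale (limma, adjusted p of 0.799). *Nfkbiz*, an inducible IκB needed for some secondary targets, had a log2 fold change of -1.29, which was -0.52 without WT tumor 3, where it reached 1540 normalized counts against 147 to 324 elsewhere.

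**Figure D4:**
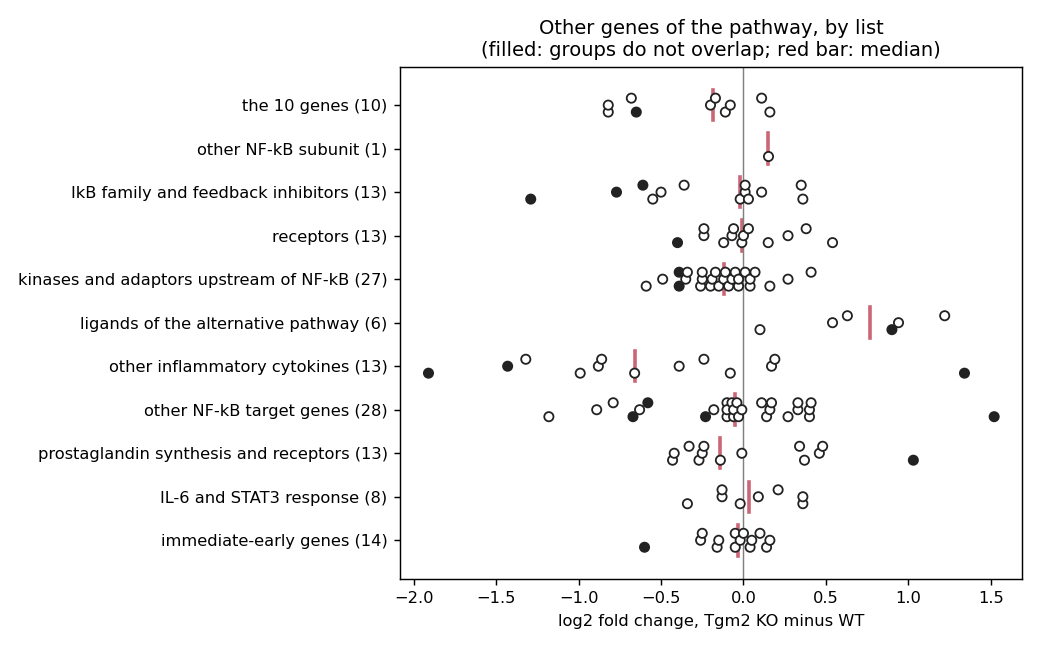
Log2 fold change (x axis, *Tgm2* knockout minus WT) of the 10 genes and of each gene of the 10 pathway lists (rows, number of genes in brackets), with filled circles for genes whose groups do not overlap and a red bar for the median. The medians lie near 0 in most lists, with the other inflammatory cytokines at -0.66 and the ligands of the alternative pathway at 0.77.

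Of the 13 receptors, none passed an unadjusted p of 0.05. The lowest p belonged to *Il1r1*, the signaling receptor of interleukin-1, with 2740, 2329 and 2449 in the WT tumors, against 1809, 1953 and 1944 in the knockout tumors. The groups were separate, with a log2 fold change of -0.40 ± 0.17 (standard error) and an adjusted p of 0.866 in limma. *Il6ra*, the interleukin-6 receptor chain, and *Ltbr*, the lymphotoxin-β receptor, had log2 fold changes of 0.38 and -0.24 with overlapping groups, and without WT tumor 2, its lowest tumor, *Il6ra* had 0.14. Among the 27 kinases and adaptors between the receptors and IκB, which include the IκB kinase subunits and TRAF proteins, none passed an unadjusted p of 0.05, and the median was -0.12. *Irak2*, *Malt1* and *Chuk*, a kinase of the interleukin-1 receptor complex, a paracaspase and a catalytic subunit of IκB kinase, had the smallest p, with log2 fold changes of -0.59, -0.39 and -0.49. In each of these genes WT tumor 3 was the highest tumor, and without it the values were -0.30, -0.28 and -0.16. The groups of *Malt1* were separate, lower in the knockout tumors, and those of *Irak2* and *Chuk* overlapped.

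The 6 ligands of the alternative pathway all had log2 fold changes above 0, with a median of 0.77, but none passed an unadjusted p of 0.05. *Tnfsf13b*, which encodes the B cell survival factor BAFF, was measured at 401, 308 and 264 in the WT tumors, against 312, 704 and 550 in the knockout tumors. Knockout tumors 2 and 3 were above all WT tumors and knockout tumor 1 was not, and the log2 fold change of 0.63 was 0.96 without knockout tumor 1, 0.37 without knockout tumor 2, and turned to -0.58 with the mean of the white adipocyte markers as a covariate. *Tnfsf11*, which encodes RANKL, had 28.4, 36.5 and 17.2 in the WT tumors, against 44.5, 40.2 and 68.9 in the knockout tumors, a log2 fold change of 0.90 (standard error 0.57) with separate groups. *Cd40lg*, the T cell ligand of CD40, had a log2 fold change of 1.22 (standard error 0.76) at values of at most 18.4 normalized counts, and 0.81 without WT tumor 2. The log2 fold changes of T and B cell markers, described below, were also above 0 in 8 of 8 genes of each list. Of these markers, 0 T cell and 1 B cell gene passed the adjusted limits of limma. The part of T and B cells in the values of these ligands was not tested.

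The 13 other inflammatory cytokines had the lowest median of the lists with more than 1 gene, -0.66, with 1 higher (7.69%) and 2 lower (15.4%) at an unadjusted p of 0.05, against 3.4% and 2.38% of all tested genes. *Il23a*, the subunit specific to interleukin-23, was measured at 73.2, 94.6 and 96.2 normalized counts in the WT tumors, against 31.0, 29.3 and 12.3 in the knockout tumors. Every knockout tumor was at less than the lowest WT value, and the log2 fold change was -1.91 (standard error 0.57, unadjusted p = 0.00906, adjusted p = 0.664 from limma). It ranged from -2.14 to -1.50 when each tumor was left out in turn. *Il12b*, which encodes the subunit shared by interleukin-12 and interleukin-23, was separate in the other direction, with 25.5, 25.0 and 24.3 in the WT tumors, against 44.5, 63.8 and 96.0 in the knockout tumors. This gave a log2 fold change of 1.34 ± 0.54 (standard error) and an adjusted p of 0.819 in limma. *Il1a*, interleukin-1α, had 61.5, 90.6 and 200 in the WT tumors, against 41.7, 39.2 and 33.4 in the knockout tumors, a log2 fold change of -1.43 that was -0.96 without WT tumor 3.

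Among 28 other NF-κB target genes the median was -0.05, with 1 higher and 1 lower (3.57% each, against 3.4% and 2.38% of all tested genes) at an unadjusted p of 0.05. *Icam1*, an adhesion molecule for leukocytes, had 6393, 6425 and 4489 normalized counts in the WT tumors, against 2962, 3904 and 3920 in the knockout tumors. All knockout tumors were below all WT tumors, and limma gave a log2 fold change of -0.67 ± 0.22 (standard error) with an adjusted p of 0.736. *Nos2*, the inducible nitric oxide synthase, was separate in the other direction (adjusted p = 0.832, limma), with 128, 98.1 and 46.1 in the WT tumors, against 593, 163 and 146 in the knockout tumors. On the log2 scale the difference was 1.52, and 0.87 without knockout tumor 1, the highest of the 6. *Cxcl1*, a neutrophil chemokine, had a log2 fold change of -1.18 (standard error 0.63) with overlapping groups and its highest value in WT tumor 2, as in the 4 targets above, without which it had -0.73. The 3 *Bcl2a1* copies of this list share near-identical sequence, so the split of reads between them is uncertain.

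In the prostaglandin list, which surrounds *Ptgs2*, 1 of 13 genes was higher (7.69%, against 3.4% of all tested genes) and 0 were lower at an unadjusted p of 0.05. *Ptges*, the inducible prostaglandin E synthase that acts just after *Ptgs2*, was measured at 368, 321 and 265 in the WT tumors, against 782, 573 and 595 in the knockout tumors. All knockout tumors were above all WT tumors, opposite to the direction of *Ptgs2*, and the log2 fold change was 1.03 (standard error 0.26, unadjusted p = 0.00426, adjusted p = 0.577 from limma). *Pla2g4a*, the phospholipase that releases arachidonic acid, and *Ptgs1*, the constitutive cyclooxygenase, had log2 fold changes of -0.43 and -0.33 with overlapping groups, and without WT tumor 1 *Ptgs1* had -0.19.

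The 8 genes of the interleukin-6 and STAT3 response had a median of 0.04, and 0 passed an unadjusted p of 0.05 in either direction. *Socs3*, the feedback inhibitor that interleukin-6 induces, had 3236, 2606 and 1960 normalized counts in the WT tumors, against 1796, 2298 and 1984 in the knockout tumors, a log2 fold change of -0.34 (standard error 0.23). *Jak1*, a kinase of the interleukin-6 receptor, and *Socs1*, another feedback inhibitor, each had 0.36. Without WT tumor 3, which was the lowest tumor in both, *Jak1* had 0.22 and *Socs1* 0.15. With 1 tumor left out, *Jak1* ranged from 0.22 to 0.57, *Socs1* from 0.15 to 0.52 and *Socs3* from -0.53 to -0.17, with the end nearest 0 of *Socs3* and the highest value of *Jak1* without WT tumor 1. The 14 immediate-early genes, which respond within minutes to growth signals and to handling of tissue, had a median of -0.03, with 0 higher and 1 lower (7.14%, against 2.38% of all tested genes) at an unadjusted p of 0.05. That gene was *Fos*, with 699, 622 and 905 in the WT tumors, against 475, 478 and 496 in the knockout tumors (log2 fold change -0.60, adjusted p = 0.819 from limma). *Junb* and *Ier2* had -0.26 and -0.25 with overlapping groups, and with 1 tumor left out they ranged from -0.44 to -0.07 and from -0.39 to -0.10. The mean log2 values of this list lay between 9.93 and 10.11 in the 6 tumors.

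Cell types that could supply these transcripts were followed through their markers. The macrophage list, with *C1qa* as its most abundant gene, summed to 59611, 41906 and 26294 normalized counts in the WT tumors, against 30317, 85226 and 65713 in the knockout tumors. Of its 10 genes, 1 was higher at an unadjusted p of 0.05 (against 3.4% of all tested genes), 9 had log2 fold changes above 0, with a median of 0.45, and the groups overlapped in all 10, where they were separate in 10.5% of all tested genes. Knockout tumor 1 was low in this list and knockout tumor 3 high, yet both lay below all WT tumors in each of *Il6*, *Il1b*, *Tnf* and *Ptgs2*. WT tumor 3, the lowest in the list, was above both of them in each of these genes. The neutrophil list summed to 725, 4584 and 52659 in the WT tumors, against 4204, 5100 and 885 in the knockout tumors. *Ltf* alone had 227, 3967 and 52176 in the WT tumors, against 3718, 3910 and 31.6 in the knockout tumors. It thus made up most of the sum in WT tumors 2 and 3 and knockout tumors 1 and 2. The defining neutrophil marker *Ly6g*, chosen once its values were known, was listed at 0 in WT tumor 1 and knockout tumor 3 and at 38.6 at most. Of the 10 neutrophil markers 3 had log2 fold changes above 0 and 7 below, with a median of -0.35, and the groups were separate in 1, *Csf3r*, which was named after its values were seen and was higher in the knockout tumors, against 5.18% of all tested genes in that direction. The part of either cell type in the target genes was not tested.

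**Figure D5:**
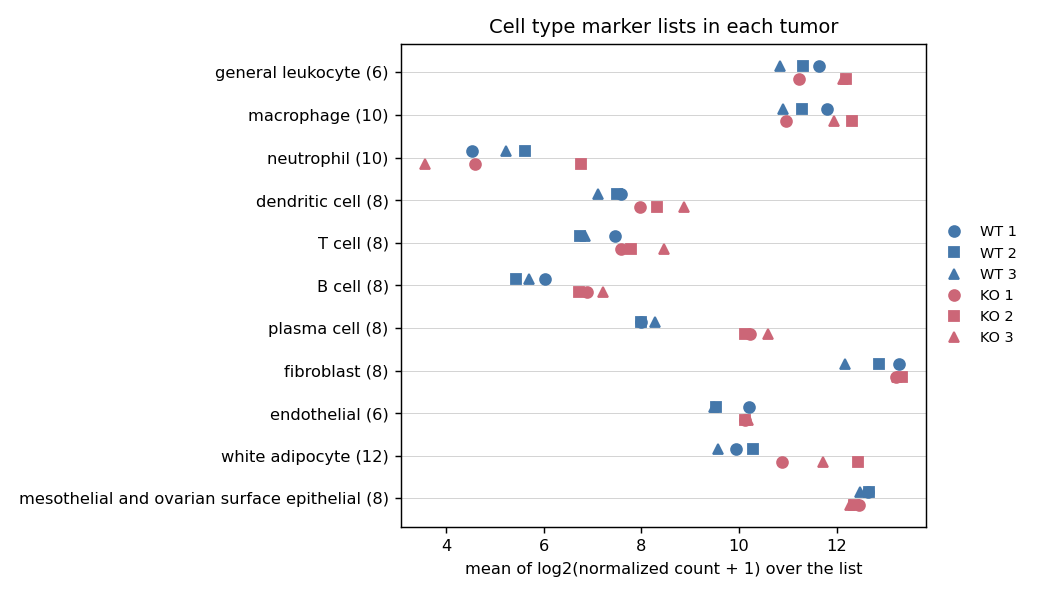
Mean of log2(normalized count + 1) over each list of cell type markers (rows, number of genes in brackets) in each tumor, with blue symbols for WT and red symbols for *Tgm2* knockout (KO) tumors. The macrophage and neutrophil lists overlap between the groups, whereas the dendritic cell, T cell, B cell, plasma cell and white adipocyte lists lie higher in all knockout tumors and the mesothelial and ovarian surface epithelial list lower in all of them (12.28 to 12.46, against 12.48 to 12.67 in the WT tumors).

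Some markers of several other cell types separated the genotypes, but few passed adjustment. The groups were separate in 5 of 8 B cell, 7 of 8 plasma cell, 4 of 8 T cell and 4 of 8 dendritic cell markers, all higher in the knockout tumors, against 5.18% of all tested genes in that direction. Of these lists, 1 B cell (12.5%) and 2 plasma cell markers (25.0%) passed the adjusted limits of limma, against 0.102% of all tested genes. No T cell or dendritic cell marker passed them. *Cd79a* and *Jchain*, the most abundant of their lists, were among those that passed, with log2 fold changes of 3.01 and 4.80. With the white adipocyte covariate used below, 0 of all tested genes passed these limits, but that covariate itself lay higher in all knockout tumors. The part of B, plasma, T and dendritic cells in the values of the 10 genes was not tested. The 12 white adipocyte markers had a median of 1.64. Their groups were separate in 6 of 12, all higher in the knockout tumors, 10 of 12 were higher at an unadjusted p of 0.05 (83.3%, against 3.4% of all tested genes), and 1, *Lep*, which encodes leptin and was named after its values were seen, passed the adjusted limits of limma (8.33%, against 0.102%). Their summed level was 50740, 64075 and 37467 in the WT tumors, against 55358, 205032 and 122655 in the knockout tumors, with *Lpl* as the most abundant gene. The mean log2 value of these markers was 9.94, 10.28 and 9.58 in the WT tumors, against 10.88, 12.43 and 11.73 in the knockout tumors. It thus separated the genotypes, and in 6 tumors its part and that of genotype cannot be told apart. With this mean as a covariate, the log2 fold changes of *Il6*, *Il1b*, *Tnf* and *Ptgs2* became -2.64, -2.39, -1.20 and -1.61, and none of the 4 passed adjustment. These values are therefore not estimates of a genotype effect freed of adipocytes. The inhibitors *Nfkbia* and *Tnfaip3* became -0.53 and -0.33, and the subunits *Nfkb1*, *Rela*, *Nfkb2* and *Relb* 0.20, 0.27, -0.16 and -0.12. Of the other pathway genes, the covariate turned *Chuk* to 0.38 and, as given above, *Tnfsf13b* below 0. It moved *Cxcl1* to -3.20, *Icam1* to -1.28, *Junb* to -1.16, *Ier2* to -0.96, *Socs3* to -0.85, *Pla2g4a* to -0.80, *Ptgs1* to -0.68 and *Ltbr* to -0.62, and *Nos2* to 2.86, *Cd40lg* to 2.63, *Rel* to 0.89 and *Jak1* to 0.55. Values nearer to 0 were found for *Nfkbiz* (-0.29), *Malt1* (-0.09), *Zc3h12a* (-0.46), *Il1a* (-0.84), *Fos* (-0.38), *Il12b* (0.80) and *Tnfsf11* (0.56). None of these genes passed adjustment with the covariate. The general leukocyte, fibroblast and endothelial lists had medians of 0.50, 0.60 and 0.51, with *Laptm5*, *Col3a1* and *Pecam1* as their most abundant genes. The mesothelial and ovarian surface epithelial list had a median of -0.32, with 5 of 8 genes below 0. Its groups were separate in 2 of 8, *Krt8* and *Krt19*, named after their values were seen and both lower in the knockout tumors, against 5.33% of all tested genes in that direction. None of the 8 passed an unadjusted p of 0.05, and *Wt1*, the most abundant, had 0.11. In the dendritic cell and T cell lists *Itgax* and *Cd4* were the most abundant, with log2 fold changes of 0.53 and 1.49.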

How the data were processed

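Per the paper's methods and the submitters' processing notes, the authors quantified paired reads with kallisto 0.46.2 on GRCm38, collapsed transcripts into genes with biomaRt, dropped genes of low expression and divided by DESeq2 size factors. The deposited signal values are therefore normalized counts, although the table is labelled TPM. Only genes with 1 transcript gave back whole reads: at least 96.6% of their values up to 5 reads lay in each tumor within 0.1 of a whole number of reads. No count model was therefore fitted. The design had named a test on log2 values, which was kept.

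With R 4.3.3 and limma 3.58.1, log2(value + 1) was compared between 3 WT and 3 *Tgm2* knockout tumors, with no covariate and a trend of variance on mean expression, over 19667 genes that reached 1 in 3 or more tumors. P-values were two-sided and adjusted by Benjamini-Hochberg over all of them. A fold change on this scale understates the change of low genes. Tumors are separate samples by their labels; whether each came from its own mouse is not stated, so p-values measure the spread between these samples. Exact permutation tests used scipy 1.17.1. The 10 genes and the lists were chosen with earlier results of these data known. The genes named are the 10, *Tgm2*, the 3 genes with the smallest p of each pathway list and the most abundant gene of each marker list; any other was named after its values were seen. Gene positions are those of GENCODE M21 (GRCm38) for the same symbol. Levels per kb use the longest coding transcript. The models were tested on simulated data. Alternatives changed the pseudocount, filter, scaling, replicate block, variance trend, covariate and thresholds, and left out each tumor in turn.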

Additional observations from a re-analysis of the deposited data

How the results depend on the processing

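None of the 10 genes passed the limits under any of the 14 alternative fits, nor at an adjusted p of 0.05 alone or an unadjusted p of 0.05 with the fold limit; across the fits their adjusted p ranged from 0.528 to 1.0. *Il6*, *Il1b*, *Tnf*, *Ptgs2*, *Nfkbia* and *Tnfaip3* stayed below 0, and *Nfkb1* above 0 in every fit. The subunits near 0 changed sign when a tumor was left out: *Nfkb2* ranged from -0.29 to 0.06, *Rela* from -0.03 to 0.24, *Relb* from -0.28 to 0.03 and *Rel* from -0.02 to 0.35. The median of the 10 genes ranged from -0.34 to -0.08 without 1 tumor and was -0.43 with the adipocyte covariate, which moved the median of all genes from -0.03 to 0.09. That covariate, which itself separated the genotypes, also reversed *Chuk* (0.38) and *Tnfsf13b* (-0.58). The cause was not tested. Over all genes, 20 were higher and 0 lower past the limits. The number higher was 5 with the replicate block, 4 without the variance trend, 0 with the adipocyte covariate and 2 to 14 without 1 tumor, with the lowest count without WT tumor 2, 7 without WT tumor 1, 13 without WT tumor 3 and 11 without knockout tumor 1 or 2. The number lower was 0 to 1 without 1 tumor, the 1 without WT tumor 1. At an unadjusted p of 0.05 with the fold limit, 491 were higher and 305 lower. Over all tested genes, deviations of same-numbered tumors from their group means correlated at -0.196, 0.284 and -0.307. WT tumor 1 correlated best with knockout tumor 3 (0.359), WT tumor 2 with knockout tumor 2 (0.284) and WT tumor 3 with knockout tumor 1 (0.355). Deviations within a group of 3 sum to 0, which ties these values together, so they cannot decide whether the replicate numbers pair the tumors. The block changed no call among the 10 genes. *Cd40lg* did not reach the filter of at least 10 in 3 tumors. *Il6* rests on 7.95 to 35.9 reads in a tumor, and how far depth limits it was not tested. The groups of 3 tumors were not tested for outlying samples.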
